A study of Drosophila melanogaster with 18 samples.

Results

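Tubulins are the building blocks of microtubules. Alpha- and beta-tubulin form the dimer that polymerizes, and gamma-tubulin sits in ring complexes that seed new microtubules at centrosomes and spindles. The early Drosophila melanogaster embryo divides its nuclei quickly in a shared cytoplasm, and its first tubulin mRNAs come from the mother. Some tubulin genes serve this maternal supply alone, above all alphaTub67C and gammaTub37C, whereas others, such as alphaTub84B, alphaTub84D, betaTub56D and gammaTub23C, are used in most cells throughout life. Maternal transcripts are cleared during the maternal-to-zygotic transition, as zygotic transcription begins.

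The tubulin genes described here were chosen by symbol: alphaTub67C, alphaTub84B, alphaTub84D, betaTub56D, betaTub60D, gammaTub37C and gammaTub23C, which is 7 genes among 9236 listed at any time point. Of these, 6 were matched by identifier and were listed at all 3 time points, and all 6 passed the filter on low values. The annotated identifier of betaTub60D was in none of the tables, so no values were matched to this gene. The tables held an identifier, FBgn0003888, that the annotation does not name. It may be an older identifier of betaTub60D, which the files used here do not settle, so its values are given apart and enter no count of the 6 genes.

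Total RNA-seq was run on whole embryos of 3 age windows after egg laying, named 0-1h, 1-2h and 2-3h. The wild type was w1118, given in the labels as the pre-injected control. In orb2-delta-zz, the ZZ domain, a zinc-binding part of the CPEB-family RNA-binding protein ORB2, is deleted, and the comparison addresses how transcript levels depend on that domain. There were 3 libraries per genotype and time point, or 18 in all, and the labels do not say whether replicates came from separate cages or collections, so p-values measure only the spread between these libraries. The labels say nothing of the number of orb2-delta-zz lines used.

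The tables of the 3 windows listed 7617, 8188 and 9141 genes. Levels are given in TPM (a transcript abundance scaled to a fixed total), which is length-corrected and a share of each library, so a gene can rise in TPM when other transcripts fall. In whole embryos, fewer nuclei or cells of a type and less RNA from each cannot be told apart. Tests between genotypes used normalized counts, the authors' depth-scaled values, within a time point. The altered gene, orb2, was at 34.5, 29.7 and 35.1 TPM in wild type and 25.8, 29.2 and 24.7 TPM in orb2-delta-zz at 0-1h. Its normalized counts were lower in orb2-delta-zz at that time (log2 fold change -0.35 ± 0.058 SE, limma adjusted p = 0.00233), which does not check a domain deletion, since a gene total does not read the deleted part. At 1-2h and 2-3h it was not called (-0.39 and -0.80, limma adjusted p = 0.0601 and 0.398). The embryo label was checked with marker genes. The summed TPM of 4 maternal markers (bcd, osk, gcl and nanos) lay between 2083 and 2394 at 0-1h and between 77 and 365 at 2-3h, and that of 8 early zygotic markers went from between 142 and 187 to between 1201 and 1855. Of 7 markers of follicle cells and late embryos, the chorion genes Cp36 and Cp38, the vitelline membrane gene Vm26Aa and the yolk gene Yp1 were not listed at any time point, while elav, Act57B and Mhc, markers of neurons and muscle, were listed at 1 or more. Their summed TPM was at most 1.83 at 0-1h and lay between 32.1 and 58.1 at 2-3h. At 1-2h wild type replicate 2 stood apart at 26.9, against 7 and 5.86 in wild type replicates 1 and 3. The orb2-delta-zz libraries lay between 3.67 and 5.65. Of that 26.9, Act57B alone made up 23.2, against 1.03 and 0 in wild type replicates 1 and 3. In contrast, elav was lowest in replicate 2, at 3.7 against 5.97 and 5.86. Act57B also differed between libraries at 2-3h, at 5.33, 2.64 and 13 TPM in wild type and 0.107, 14.6 and 0.273 in orb2-delta-zz. Mhc at 2-3h was at 0.739, 0.0485 and 2.42 TPM in wild type and 0.0653, 4.38 and 0.0645 in orb2-delta-zz. The neuronal gene elav was lower in orb2-delta-zz at 0-1h (-1.27 on the log2 scale, limma adjusted p = 0.0131). By the same test 21.3% of all genes were called then. Its TPM at 0-1h was low, at 1.83, 1.29 and 1.68 in wild type and 0.91, 0.412 and 0.79 in orb2-delta-zz. It was not called at 1-2h or 2-3h (-0.31 and 0.25, limma adjusted p = 0.502 and 0.691).

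The 2 maternal genes fell steeply over 3 hours while the other 4 rose or stayed level, in both genotypes. alphaTub67C, the maternal alpha-tubulin, fell 78.7-fold in wild type and 70.6-fold in orb2-delta-zz between 0-1h and 2-3h. gammaTub37C, the maternal gamma-tubulin, fell 60.1-fold and 49.2-fold. alphaTub84D rose 2.24-fold and 2.67-fold, alphaTub84B 1.88-fold and 2.10-fold, betaTub56D 1.68-fold and 1.75-fold, and gammaTub23C 1.25-fold in both. These are folds of mean TPM, given as a description, because the time points were normalized separately and were not tested against each other.

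alphaTub67C (FBgn0087040) lies on the plus strand of chromosome 3L, from 9681268 to 9683370 in BDGP6.54, with 2 exons and an mRNA of 1617 nt. Its wild type TPM was 866, 868 and 899 at 0-1h, 210, 409 and 278 at 1-2h, and 6.25, 11.6 and 15.7 at 2-3h. In orb2-delta-zz it was 871, 868 and 877, then 252, 269 and 233, then 11.8, 10.9 and 14.4. No library of a later time point reached the level of an earlier one in either genotype. The fall was 2.93-fold in wild type and 3.47-fold in orb2-delta-zz over the first step, and 26.8-fold and 20.3-fold over the second. Between 0-1h and 2-3h the fold ranged from 55.3 to 144 over pairs of wild type libraries and from 60.4 to 80.2 over pairs of orb2-delta-zz libraries.

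gammaTub37C (FBgn0010097) lies on the minus strand of chromosome 2L, from 19183863 to 19185726, with 4 exons in each of 2 annotated transcripts. Its wild type TPM was 203, 187 and 205 at 0-1h, 35.1, 95 and 60.9 at 1-2h, and 2.2, 3.59 and 4.1 at 2-3h. The orb2-delta-zz values were 187, 200 and 187, then 62.3, 71.7 and 63.4, then 3.67, 4.06 and 3.95. The libraries of successive time points did not overlap here either. As for alphaTub67C, the second step was the larger, at 19.3-fold in wild type and 16.9-fold in orb2-delta-zz against 3.11-fold and 2.91-fold for the first.

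The change from 0-1h to 2-3h was set against genes listed at both times with a mean TPM of 5 or more at either end. Genes listed at 2-3h but not at 0-1h could not enter, so the share that rose leaves them out. Of 6886 such genes in wild type, 35.0% fell at least 2-fold on the log2(TPM + 1) scale and 8.97% rose at least 2-fold. In orb2-delta-zz these shares were 35.9% and 9.29% of 6889 genes. By this measure 2 of the 6 tubulin genes fell in each genotype, and 1 rose in the wild type and 2 in orb2-delta-zz. The median log2 ratio of the genes compared was -0.43 in the wild type and -0.47 in orb2-delta-zz. alphaTub67C, at -6.18, stood at percentile 0.174 of the genes compared in wild type, and gammaTub37C, at -5.53, at percentile 0.45. In orb2-delta-zz they stood at percentiles 0.261 and 0.624.

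**Figure D1:**
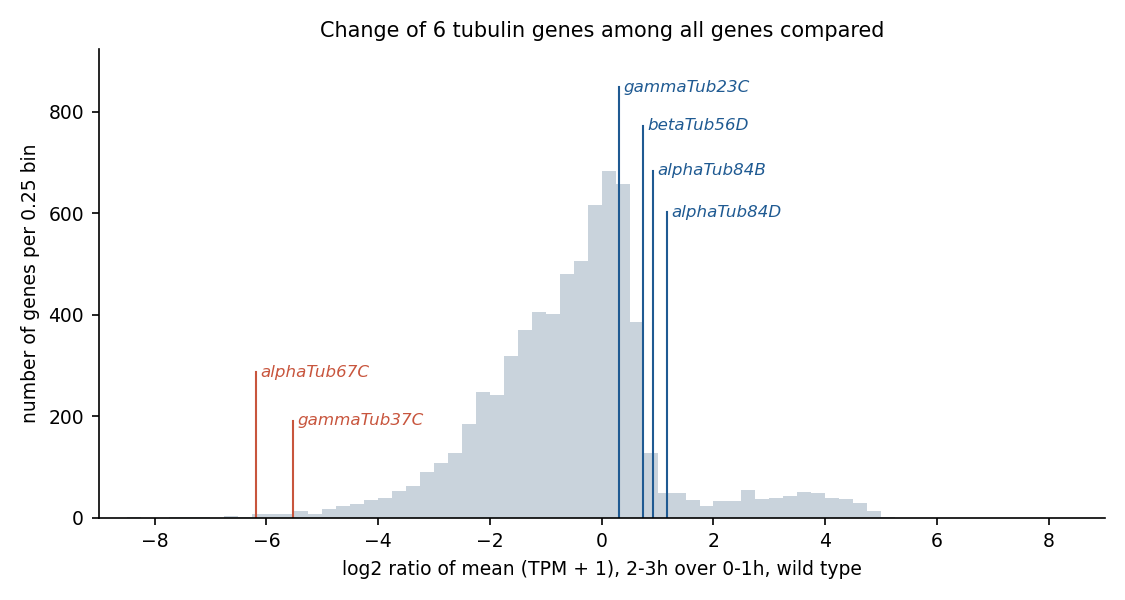
Number of genes (y axis) by log2 ratio of mean TPM + 1 at 2-3h over 0-1h in wild type (x axis, bins of 0.25), with a line at the ratio of each of 6 tubulin genes. The height of a line carries no value. Only genes listed at both times are counted. alphaTub67C at -6.18 and gammaTub37C at -5.53 lie in the far left tail, and the other 4 lie right of 0.

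alphaTub84B (FBgn0003884), the main general alpha-tubulin, lies on the plus strand of chromosome 3R, from 7086599 to 7088839, with 2 exons. Its wild type TPM was 1672, 1545 and 1706 at 0-1h, 2042, 1951 and 2110 at 1-2h, and 3385, 3047 and 2825 at 2-3h. In orb2-delta-zz it was 1666, 1791 and 1613, then 2427, 2242 and 2231, then 3467, 3379 and 3782. Each step was upward with no overlap between libraries of successive time points.

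alphaTub84D (FBgn0003885) is a close paralog of alphaTub84B, with a single exon, 442 kb away on chromosome 3R (7530753 to 7532732, plus strand). How the authors' quantification divided reads between near-identical coding sequences could not be checked, so the split between these genes is uncertain. Its wild type TPM was 141, 145 and 139 at 0-1h, 219, 167 and 196 at 1-2h, and 369, 312 and 270 at 2-3h. The orb2-delta-zz values were 131, 145 and 132, then 198, 194 and 183, then 350, 355 and 383. It was the member with the largest rise in both genotypes, and its libraries did not overlap between successive time points. It made up 7.96% ± 0.539 (SD, n = 3) of the TPM of the pair in wild type at 0-1h and 9.29% ± 0.558 at 2-3h.

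betaTub56D (FBgn0284243), the general beta-tubulin, lies on the minus strand of chromosome 2R, from 19447319 to 19451600, with 2 annotated transcripts of 2 exons. Its wild type TPM was 1609, 1504 and 1582 at 0-1h, 1737, 1769 and 1947 at 1-2h, and 2769, 2616 and 2494 at 2-3h. In orb2-delta-zz it was 1588, 1629 and 1541, then 2165, 2027 and 2066, then 2645, 2705 and 2993. Like its alpha partner it went up at each step without overlap.

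gammaTub23C (FBgn0260639), the general gamma-tubulin, lies on the plus strand of chromosome 2L, from 2972891 to 2974858, with 3 exons. Its wild type TPM was 105, 90 and 95.6 at 0-1h, 79.8, 102 and 111 at 1-2h, and 121, 119 and 122 at 2-3h. The orb2-delta-zz values were 101, 104 and 103, then 114, 116 and 106, then 122, 122 and 141. The wild type libraries overlapped between 0-1h and 1-2h, the only such overlap among the 6 genes in either genotype.

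**Figure D2:**
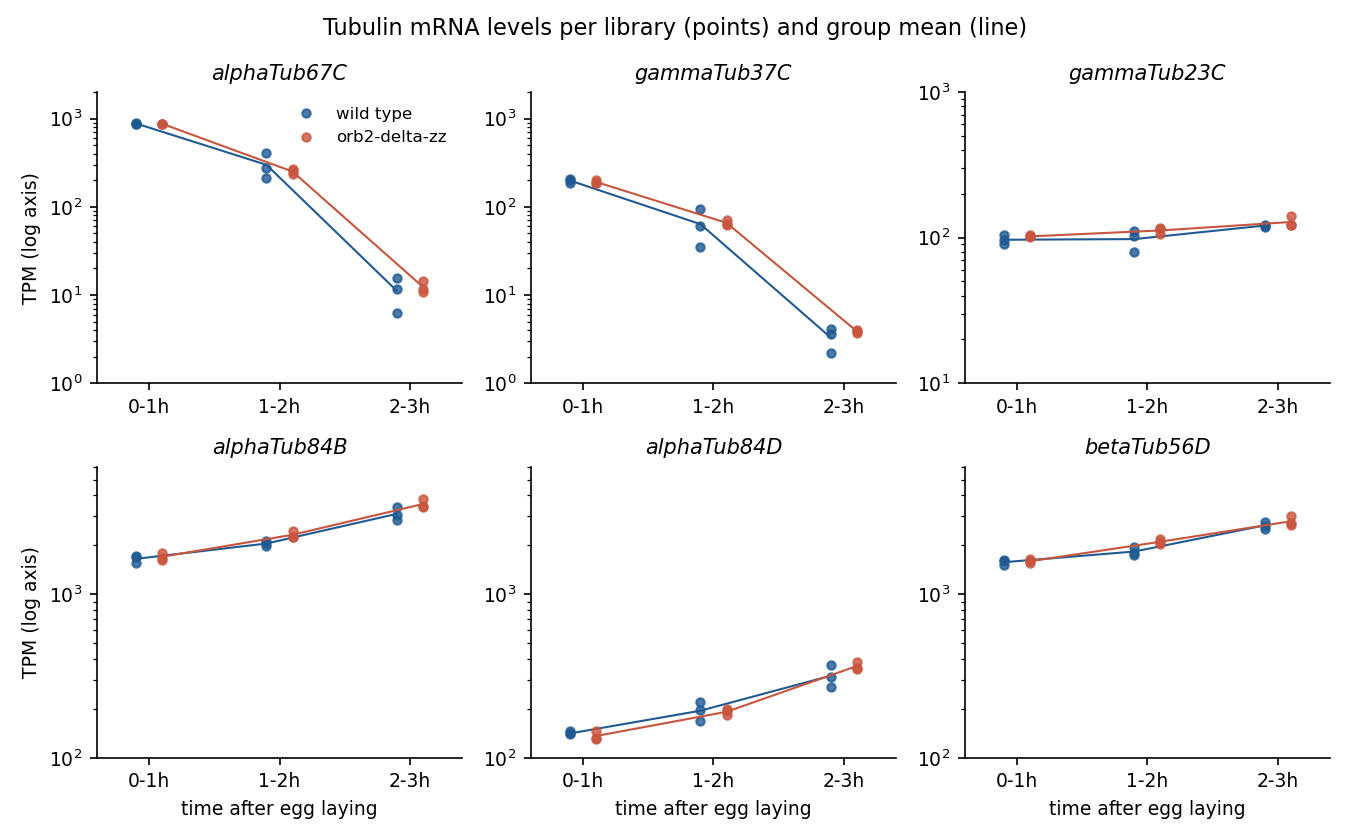
TPM (y axis, log scale, with different ranges for maternal, gamma and general genes) of 6 tubulin genes at 3 times after egg laying (x axis), with 1 point per library and a line through the group means. alphaTub67C and gammaTub37C fall from means of 878 and 198 to 11.2 and 3.3 TPM in wild type, whereas the other 4 end at or above their starting level.

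The order of the genes by level changed over these hours. At 0-1h in wild type the order of mean TPM was alphaTub84B, betaTub56D, alphaTub67C, gammaTub37C, alphaTub84D and gammaTub23C. The first and second of these, at 1641 ± 84.7 and 1565 ± 54.4 (SD, n = 3), overlapped in their libraries in both genotypes, and no other neighbours did at that time. At 1-2h the wild type libraries of alphaTub67C and alphaTub84D overlapped, as did those of gammaTub23C and gammaTub37C, whereas in orb2-delta-zz no neighbours overlapped. At 2-3h the order in both genotypes was alphaTub84B, betaTub56D, alphaTub84D, gammaTub23C, alphaTub67C and gammaTub37C, with no overlap between neighbours. Both maternal genes thus ended below the other members.

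The make-up of each family shifted accordingly. alphaTub67C made up 32.3%, 33.9% and 32.8% of the TPM of the 3 alpha-tubulins in wild type at 0-1h, 8.52%, 16.2% and 10.8% at 1-2h, and 0.166%, 0.343% and 0.503% at 2-3h. The orb2-delta-zz shares were 32.7%, 31% and 33.4%, then 8.75%, 9.94% and 8.81%, then 0.307%, 0.292% and 0.344%. gammaTub37C was the larger gamma-tubulin at 0-1h, with 66%, 67.5% and 68.2% of the pair in wild type, and the smaller one at 1-2h in every library, with 30.5%, 48.1% and 35.4%. At 2-3h it held 1.79%, 2.93% and 3.24%. Its orb2-delta-zz shares were 65%, 65.8% and 64.6%, then 35.4%, 38.2% and 37.5%, then 2.93%, 3.21% and 2.73%.

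None of 6 exact two-sided permutation tests of these shares between genotypes could pass 0.05, since the smallest p with 3 libraries against 3 is 0.1. The difference in the alphaTub67C share (orb2-delta-zz minus wild type) was -0.662, -2.66 and -0.0232 percentage points at 0-1h, 1-2h and 2-3h, with exact permutation p of 0.5, 0.4 and 0.8. That in the gammaTub37C share was -2.07, -1.01 and 0.304 points, with exact permutation p of 0.1, 0.9 and 0.8. After Benjamini-Hochberg adjustment over the 6 tests, p was between 0.6 and 0.9. The gammaTub37C shares at 0-1h did not overlap between genotypes, and all 3 orb2-delta-zz libraries were lower.

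**Figure D3:**
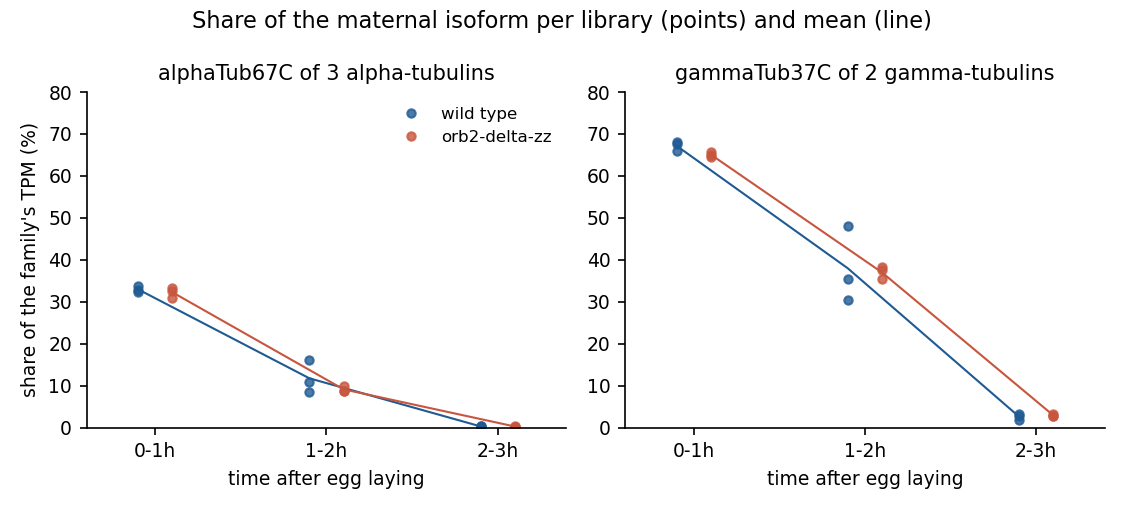
Share of the family's TPM in percent (y axis) held by alphaTub67C among 3 alpha-tubulins (left) and by gammaTub37C among 2 gamma-tubulins (right) at 3 times after egg laying (x axis), with 1 point per library and a line through the means. The wild type means go from 33% to 0.337% on the left and from 67.2% to 2.65% on the right, and the orb2-delta-zz points lie close to them.

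The summed level of the alpha-tubulins changed less than its make-up. It was 2660 ± 94.4 TPM at 0-1h, 2527 ± 55.8 at 1-2h and 3414 ± 327 at 2-3h in wild type (SD, n = 3), and 2698 ± 93.9, 2743 ± 119 and 3917 ± 230 in orb2-delta-zz. The ratio of this sum to betaTub56D was 1.7, 1.39 and 1.3 in the wild type and 1.7, 1.31 and 1.41 in orb2-delta-zz. Since betaTub60D is not in the denominator, this is not the ratio of the whole families. The summed gamma-tubulins went down, from 295 ± 16 to 161 ± 42.2 and 124 ± 2.04 TPM in wild type and from 294 ± 8.44 to 178 ± 9.52 and 132 ± 10.9 in orb2-delta-zz. The alpha and beta sum was 14.3 times the gamma sum at 0-1h and 48.7 times at 2-3h in wild type, and 14.6 and 50.8 times in orb2-delta-zz.

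None of the 6 tubulin genes differed between genotypes past the threshold at any time point (limma on log2(normalized count + 1), adjusted p under 0.05). The same rule called 21.3% of all genes tested at 0-1h, with 7.37% called at 1-2h and 3.28% called at 2-3h. At an unadjusted p under 0.05 the counts of tubulin genes were 1, 0 and 0. Over all genes they were 2598 of 7559, 1956 of 8095 and 1468 of 9014. FBgn0003888, the unnamed identifier, did pass the adjusted threshold at 2-3h. The count of 0 called therefore holds for the 6 matched genes and not for a set that might include that identifier. The intervals show which differences these libraries could have missed: they were narrowest at 0-1h and widest for the maternal genes at the later times.

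Of the 6, the single gene under 0.05 before adjustment was gammaTub37C at 0-1h. Its normalized counts were 7049, 7020 and 7038 in the wild type and 6473, 6753 and 6690 in orb2-delta-zz, so the groups did not overlap. The log2 fold change was -0.08, with a 95% interval from -0.17 to -0.0010 and an adjusted p of 0.141 by limma. Groups without overlap were found for 38.9%, 32.8% and 23.5% of all genes at the 3 time points in turn, and for 1, 0 and 0 of the 6 tubulin genes. In TPM the gammaTub37C groups at 0-1h overlapped.

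For alphaTub67C the normalized counts at 1-2h were 9949, 16359 and 11815 in the wild type and 10382, 10763 and 9483 in orb2-delta-zz. The wild type libraries spread over a wide range and covered those of orb2-delta-zz in part. The log2 fold change was -0.04 at 0-1h (95% interval -0.16 to 0.07), -0.29 at 1-2h (-0.68 to 0.11) and 0.19 at 2-3h (-0.61 to 0.99), with limma adjusted p of 0.599, 0.349 and 0.823. For gammaTub37C it was 0.07 at 1-2h (-0.54 to 0.69) and 0.24 at 2-3h (-0.39 to 0.87), with adjusted p of 0.890 and 0.708. At 2-3h wild type replicate 1 decided the sign for both: without it the log2 fold change was -0.19 for alphaTub67C and -0.034 for gammaTub37C.

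The general genes had narrower intervals than the maternal ones at 1-2h and 2-3h, though not at 0-1h. alphaTub84B had log2 fold changes of 0.01, 0.09 and 0.16 at the 3 time points, and at 2-3h the interval ran from -0.03 to 0.34 (limma adjusted p = 0.401). Its normalized counts there were 170308, 156506 and 144020 in the wild type and 180668, 167144 and 175553 in orb2-delta-zz. The groups overlapped, although the lowest orb2-delta-zz library was above 2 of the 3 wild type libraries. alphaTub84D had -0.09, -0.10 and 0.16, betaTub56D -0.02, 0.11 and 0.04, and gammaTub23C 0.05, 0.12 and 0.04. In TPM at 1-2h, the orb2-delta-zz libraries of alphaTub84B and of betaTub56D all lay above the wild type ones, which the normalized counts did not show. Groups without overlap in TPM were found for 0, 2 and 0 of the 6 genes at the 3 time points, and for 35.7%, 32.6% and 23.4% of all genes, so the count at 1-2h is near the background.

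FBgn0003888, singled out after its values were seen, was low at first. Its normalized counts at 2-3h were 1049, 799 and 819 in the wild type and 294, 342 and 213 in orb2-delta-zz, so the groups did not overlap and all 3 orb2-delta-zz libraries were lower. The log2 fold change was -1.66 ± 0.218 (SE, adjusted p = 0.0122 by limma). That call was lost without wild type replicate 2 (0.0624) or orb2-delta-zz replicate 1 (0.077) or 3 (0.0533), with log2 fold changes from -1.81 to -1.47 over all left-out libraries. At 0-1h and 1-2h the difference was -1.10 and -1.56 and missed the threshold (limma adjusted p = 0.22 and 0.102). Its mean TPM was 1.21, 2.49 and 12.4 over the 3 time points in the wild type and 0.498, 0.956 and 4.05 in orb2-delta-zz.

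**Figure D4:**
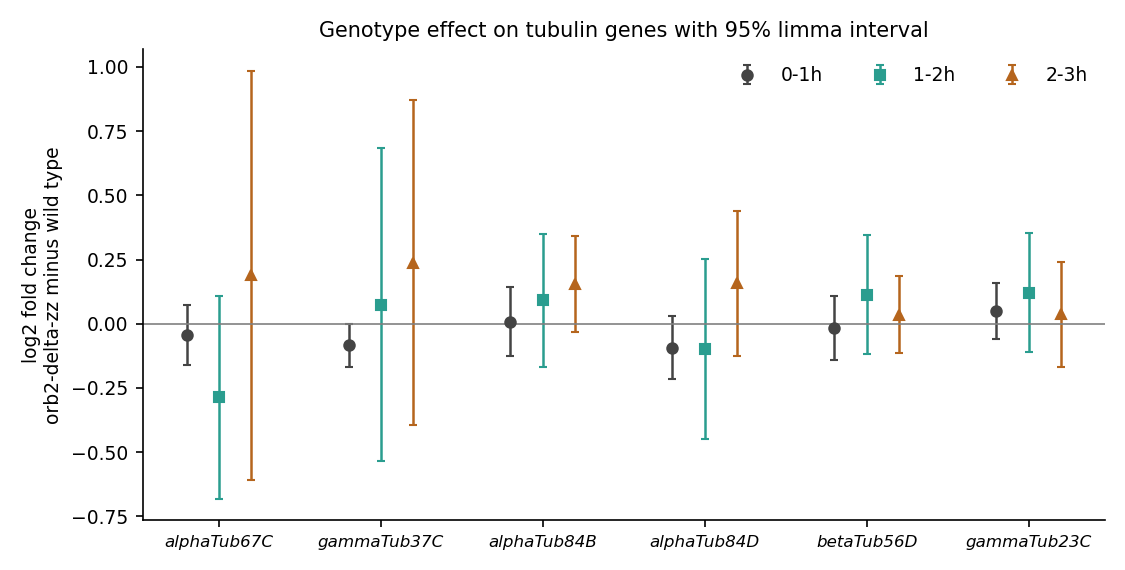
Log2 fold change of normalized counts, orb2-delta-zz minus wild type (y axis), of 6 tubulin genes (x axis) at 3 time points, with the 95% limma interval as a bar, from 3 libraries per group. Every interval includes 0 except that of gammaTub37C at 0-1h, which ends at -0.0010 and whose adjusted p is 0.141.

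The genotype effect was also compared between time points in a joint limma fit of all 18 libraries. It differed for 0 of the 6 tubulin genes in each of 3 contrasts, while the share of all genes called was 0.120% for the first step (1-2h minus 0-1h), 1.89% for the whole span (2-3h minus 0-1h) and 0.790% for the second step. At an unadjusted p under 0.05 the count was also 0 in each contrast, against 239, 860 and 768 of 7470 genes in the same order. The largest difference was that of alphaTub67C for 2-3h against 1-2h, at 0.48 on the log2 scale (95% interval -0.26 to 1.21, adjusted p = 0.679).

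The wild type libraries at 1-2h and 2-3h differed in the maternal genes in a shared way. Wild type replicate 2 at 1-2h held the highest and replicate 1 the lowest TPM of both alphaTub67C and gammaTub37C, and at 2-3h replicate 1 held the lowest and replicate 3 the highest of both. The narrower orb2-delta-zz groups did not share a full order. At 0-1h replicate 2 was lowest for alphaTub67C and highest for gammaTub37C. At 1-2h it was highest for both. At 2-3h it was lowest for alphaTub67C (10.9 TPM) and highest for gammaTub37C (4.06 TPM). After the mean of each of the 6 groups was subtracted from log2 values, the deviations of alphaTub67C and gammaTub37C had a Pearson r of 0.887 over the 18 libraries, and those of alphaTub84B and betaTub56D one of 0.855. The maternal genes ran opposite to alphaTub84D, with r of -0.822 for alphaTub67C and -0.838 for gammaTub37C. The other general genes did so less or not at all. In the same order, r was -0.482 and -0.415 for alphaTub84B, -0.216 and -0.114 for betaTub56D, and 0.42 and 0.565 for gammaTub23C. Within a library these values share its total, so they are descriptions.

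The maternal markers moved with alphaTub67C in the wild type libraries at 1-2h and 2-3h only. Their summed TPM in wild type was 1035, 1710 and 1276 at 1-2h and 77, 215 and 365 at 2-3h, which is the order of alphaTub67C in the same libraries. In orb2-delta-zz it was 1266, 1421 and 1377 at 1-2h and 145, 172 and 164 at 2-3h, a narrower range, as for alphaTub67C. The order was not that of alphaTub67C there (252, 269 and 233, then 11.8, 10.9 and 14.4 TPM). Nor did the orders match in wild type at 0-1h, with sums of 2207, 2083 and 2226 against 866, 868 and 899 for alphaTub67C. The early zygotic markers summed to 458, 262 and 592 TPM in wild type at 1-2h and to 1349, 1855 and 1632 at 2-3h. Replicate 2 was thus lowest at 1-2h, and at 2-3h replicate 1 was lowest in both marker sums. Most of the zygotic sum at 2-3h was slam (925, 1398 and 1151 TPM), and sc and nullo were also lowest in replicate 1. The other zygotic markers went otherwise. Replicate 1 was highest for sisA (88.2, 73.3 and 63.8), eve (58.1, 55 and 47.2) and ftz (58.7, 43.7 and 39.7). Replicate 3 was lowest for Kr and run, so the sum does not speak for each marker. The part of embryo age or staging in the spread of the maternal tubulins was not tested.

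The genes whose profiles were most like each tubulin gene were found by Pearson r of log2(TPM + 1) over the 18 libraries, among 6694 genes. For alphaTub67C these were dhd (0.9992), Mdh2 (0.9992) and slif (0.9988), and 206 genes had an r of 0.99 or more. For gammaTub37C they were clos (0.9987), Gapdh2 (0.9987) and usp (0.9984), among 255 such genes. The nearest to alphaTub84B were Septin1 (0.9929), betaTub56D (0.9920) and lark (0.9911), with 5 genes at 0.99 or more, so its beta partner was among them. betaTub56D in turn was nearest to alphaTub84B (0.9920), eIF4A (0.9908) and insv (0.9906). The nearest to alphaTub84D were Antp (0.9952), Fbxl7 (0.9941) and pros (0.9932), with 27 genes at 0.99 or more. gammaTub23C had 0 genes that high, and those near it included CG13599 (0.9559) and Tango4 (0.9556). Such values rest largely on the shared course over time, and over all libraries alphaTub67C and gammaTub37C had an r of 0.997 with each other.

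Genes that work with tubulin were followed in 7 lists of 67 genes, of which 60, 61 and 64 were tested at 0-1h, 1-2h and 2-3h. At 0-1h 12 were called, 1 higher and 11 lower in orb2-delta-zz, a share of 20.0% that is near the 21.3% over all genes. That count was 5 on TPM (2 higher and 3 lower) and between 6 and 13 with 1 library left out. At 1-2h 3 were called (4.92%, against 7.37% of all genes), and at 2-3h 2 (3.12%, against 3.28%). With 1 library left out these counts went from 1 (without orb2-delta-zz replicate 2) to 5 (without wild type replicate 2) and from 0 (without wild type replicate 2 or any one orb2-delta-zz library) to 9 (without wild type replicate 1).

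Of the gamma-tubulin ring complex, whose subunits hold gamma-tubulin in its template, 3 of 6 tested genes were lower at 0-1h, when 21.3% of all genes were called. On TPM 1 of the 6 was called, against 1244 of 7559 genes. The median log2 fold change was -0.12, against -0.01 over all genes. Grip71, the fly counterpart of NEDD1, had normalized counts of 9740, 9635 and 9274 in the wild type and 6842, 7292 and 6908 in orb2-delta-zz. The groups were far apart, and limma gave a difference of -0.45 ± 0.042 on the log2 scale (SE, adjusted p = 6.5e-05). Grip163 and Grip91 were lower by less, at -0.20 (adjusted p = 0.0299) and -0.19 (adjusted p = 0.00776), and neither was called on TPM (adjusted p = 0.267 and 0.141). Grip163 also missed the threshold without either of wild type replicates 1 and 3 or either of orb2-delta-zz replicates 2 and 3 (0.0632 to 0.11). Grip71 was lower again at 1-2h, at -0.52 (adjusted p = 0.0143, and 0.0949 on TPM), a call lost without orb2-delta-zz replicate 2 (0.0849) or 3 (0.0876). At 2-3h limma called 0 of 7 tested genes, and 0 had an unadjusted p under 0.05, against 1468 of 9014 over all genes.

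Of the genes that fold tubulin, 1 of 13 was called at 0-1h and 2 at each later time, against 21.3%, 7.37% and 3.28% of all genes. Tbcb, a cofactor that binds alpha-tubulin, was lower at each, with log2 fold changes of -0.75, -0.85 and -0.93 (limma adjusted p = 5.7e-05, 0.00253 and 0.021). Its normalized counts at 0-1h were 2267, 2347 and 2493 in the wild type and 1399, 1303 and 1535 in orb2-delta-zz. CCT4, a subunit of the cytosolic chaperonin, was higher at 1-2h by 0.63 (adjusted p = 0.0105) and at 2-3h by 1.04 (adjusted p = 0.0257). The CCT4 call at 1-2h was lost without wild type replicate 3 (0.0556) or orb2-delta-zz replicate 2 (0.0559). The calls of Tbcb and CCT4 at 2-3h were lost without wild type replicate 2 (adjusted p = 0.117 and 0.123) and without any one of the orb2-delta-zz libraries (0.0866 to 0.129).

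The lists of spindle motors and microtubule ends were broad: the first also held Khc and Klc, the second stai, Map205 and Map60. Of 9 genes listed as spindle motors, 4 were lower at 0-1h (44.4%, against 21.3% of all genes called), and 1 was called on TPM. The 4 included the dynein heavy chain Dhc64C (-0.32, limma adjusted p = 0.0203), the kinesin sub (-0.30, adjusted p = 9.4e-04) and the kinesin Klp61F (-0.22, adjusted p = 0.00291). On TPM, Dhc64C and Klp61F missed the threshold (adjusted p = 0.0712 and 0.0585), and Dhc64C also did without either of wild type replicates 1 and 3 or either of orb2-delta-zz replicates 1 and 3 (0.0604 to 0.085). Of 14 genes listed under microtubule ends, 4 were called at 0-1h (28.6%, against 21.3% of all genes), and 1 was called on TPM. CLIP-190 (-0.23, adjusted p = 0.00747) and tacc (-0.15, adjusted p = 0.0309) were lower and stai, the fly stathmin, was higher (0.18, adjusted p = 0.0147). On TPM, CLIP-190 (adjusted p = 0.0628) and tacc (0.305) missed the threshold, and tacc did so without any one of 5 libraries (0.0552 to 0.0956), while stai did without wild type replicate 1 (0.0628). Limma called 0 of 8 augmin genes and 0 of 10 centrosome genes at each time point. At 0-1h, 2 and 4 of them had an unadjusted p under 0.05, as had 2598 of all 7559 genes tested.

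Over time the tubulin genes and these lists took different courses. In wild type the median log2 ratio of TPM + 1 at 2-3h over 0-1h was -1.93 for the ring complex, -2.25 for the folding genes, -1.54 for the spindle motors, -1.03 for the proteins of microtubule ends, -0.71 for the centrosome and -0.63 for augmin, against 0.53 for the 6 tubulin genes and -0.43 for all genes. The tubulin genes ranged from -6.18 to 1.16, wider than any of the lists. These medians cover only genes listed at both time points, and no test was made over time.

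**Figure D5:**
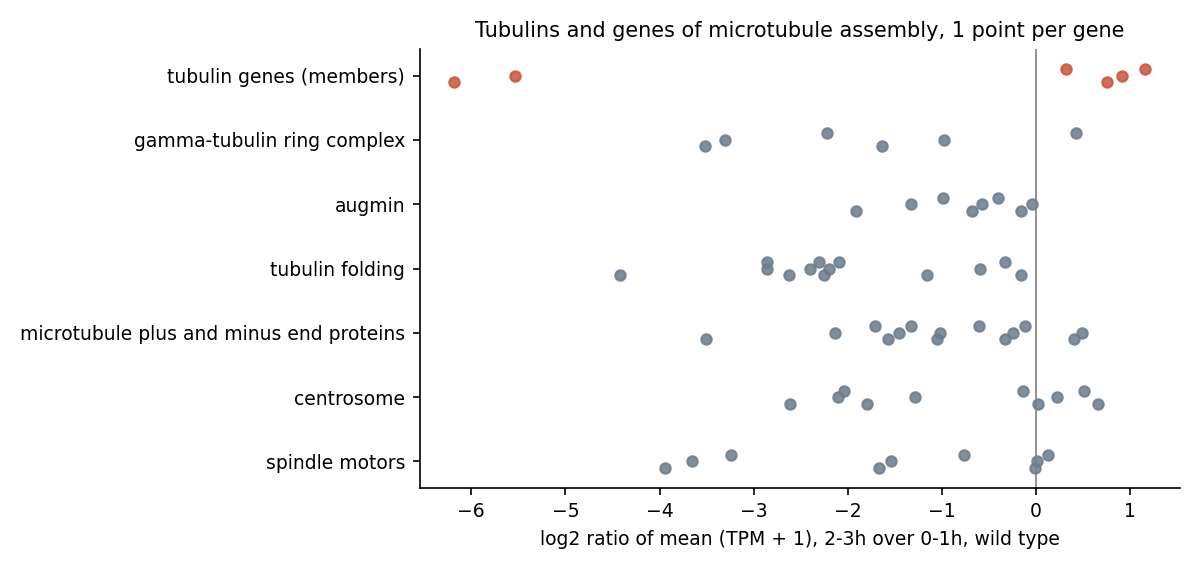
Log2 ratio of mean TPM + 1 at 2-3h over 0-1h in wild type (x axis) for the 6 tubulin genes and the genes of 6 lists (rows), with 1 point per gene and a vertical offset for legibility only. The tubulin genes split into 2 at the far left and 4 right of 0, while the lists spread mostly left of 0.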

How the data were processed

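Total RNA was extracted with TRIzol, depleted of ribosomal RNA and made into directional libraries, per the labels' protocols. Trim Galore 0.6.5, Salmon 1.9.1 and DESeq2 1.42.1 are named in the submitters' processing notes. The genome build, annotation and strand setting were not given in the sources used here. The authors deposited, for each time point, a table of normalized counts (a signal scaled for depth) and a table of TPM. Normalized totals were 3.36e+07 to 3.85e+07 and TPM totals 998329 to 999093 per library. Low values came out whole (within 0.1) in 27.2% to 71.4%, less than the 95% needed to recover reads. Depth is therefore unknown and no count test was made. All 18 libraries were used, no 2 held identical values, and 0 value columns were left unmapped.

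Symbols and positions came from the Ensembl annotation of BDGP6.54, which named 7557 of 7617, 8126 of 8188 and 9076 of 9141 identifiers. Genotypes were compared with limma 3.58.1 in R 4.3.3 (trend) on log2(normalized count + 1), two-sided, keeping genes whose mean was at least 10, with Benjamini-Hochberg adjustment over all genes tested and a threshold of 0.05. The pseudocount makes fold changes of low genes too small. Time points were normalized separately, so only the difference of genotype effects was tested between them. The members and lists were chosen with earlier results of these data known. Named genes were all members, up to 3 called genes per list and time point with the largest change, and the 3 genes most like each member, of which 1 is not reported here. Replicate numbers did not pair the libraries. Alternatives covered the pseudocount, the filter, trimmed mean factors, TPM, a replicate block, the threshold, summing alphaTub84B with alphaTub84D, the shared spread and each library left out; those for the change over time, the list counts and FBgn0003888 were chosen after seeing the data. The planned shares of betaTub60D were not run. Python 3.11.15 and matplotlib 3.10.9 drew the figures.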

Additional observations from a re-analysis of the deposited data

How the results depend on the processing

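The count of tubulin genes called, and of those with a genotype effect differing between time points, was 0 under every alternative run. FBgn0003888 is not among them: its adjusted p with the replicate block was 0.0706 at 2-3h and 0.0333 at 1-2h. Over all genes, 1610, 597 and 296 were called at 0-1h, 1-2h and 2-3h. At a threshold of 0.01 the counts were 857, 211 and 92. With 1 library left out they ranged from 1096 to 1624, from 203 (without orb2-delta-zz replicate 2) to 1261 (without wild type replicate 2) and from 77 (without orb2-delta-zz replicate 3) to 1666 (without wild type replicate 1). Of the calls at 0-1h, 844 were higher and 766 lower, against 789 and 455 on TPM and 725 and 900 with trimmed mean factors; at 1-2h 285 and 312, against 292 and 204 on TPM and 228 and 389 with trimmed mean factors.

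Replicate numbers were taken from the labels. With the replicate block the counts were 1160, 495 and 55. The pairing was not borne out: deviations of same-numbered libraries had correlations from -0.342 to 0.221, and each sample was closest to its own number at 1-2h only, a hint from the data and not the design.

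Small genotype effects changed sign. With trimmed mean factors the log2 fold change was -0.013 for alphaTub84B at 0-1h, and -0.011 for both betaTub56D and gammaTub23C at 2-3h. On TPM it was 0.019 for betaTub56D at 0-1h, and 0.047 for the difference between 1-2h and 0-1h of alphaTub84D. With 1 library left out, log2 fold changes ranged from -0.016 to 0.021 for alphaTub84B at 0-1h, from -0.26 to 0.062 for alphaTub84D and from -0.23 to 0.37 for gammaTub37C at 1-2h, and from -0.19 to 0.48 for alphaTub67C and from -0.034 to 0.42 for gammaTub37C at 2-3h. Differences between 1-2h and 0-1h ranged from -0.0028 to 0.15 for alphaTub84B, from -0.17 to 0.15 for alphaTub84D, from -0.0015 to 0.16 for gammaTub23C and from -0.15 to 0.45 for gammaTub37C. Those between 2-3h and 0-1h ranged from -0.14 to 0.53 for alphaTub67C and from -0.054 to 0.017 for gammaTub23C. Those between 2-3h and 1-2h ranged from -0.0042 to 0.15 for alphaTub84B and from -0.13 to 0.47 for gammaTub37C. The share of alphaTub67C differed by -1.21 to 0.0371 points at 0-1h and -0.109 to 0.0597 at 2-3h, and that of gammaTub37C by -4.75 to 4.05 at 1-2h and -0.128 to 0.599 at 2-3h. The cause was not tested.

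All 36 changes of the tubulin genes over time had the same direction on normalized counts, differing from TPM by -0.26 to 0.29 on the log2 scale. Of the 15 calls named from the lists, 11 were lost under at least 1 setting other than a left-out library, and 8 when a library was left out. The shares of betaTub60D and their alternatives were not run. Depth is unknown, and 3 libraries per group limit what could be called.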

Other observations

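Among genes that work with tubulin and were listed at both 0-1h and 2-3h, most fell or kept their TPM between these times. None of them rose 2-fold in either genotype. Genes not listed at 0-1h, such as betaTub65B and Mzt1, could not be counted here. Of the 13 folding genes, 10 fell at least 2-fold in the wild type and 9 in orb2-delta-zz, against 35.0% and 35.9% of all genes compared. These included all 8 CCT chaperonin subunits in both genotypes, for example CCT2, from 651 to 88.6 TPM in wild type. Tbca, a beta-tubulin cofactor, went from 75.9 to 2.59 TPM in wild type and from 87.6 to 2.96 in orb2-delta-zz. CCT4 went from 448 to 89.2 TPM in wild type and from 448 to 187 in orb2-delta-zz.

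In the gamma-tubulin ring complex, Grip84 went from 146 to 13.9 TPM and Grip128 from 120 to 9.5 in wild type, while Grip75 was at 70.3 and 94.9. Other tubulin genes were scarce. The TPM of betaTub65B at 2-3h was 5.94, 3.78 and 1.9 in the wild type and 3.62, 4.83 and 6.36 in orb2-delta-zz, and it was not listed at 0-1h. Its mean TPM went from 0.389 at 1-2h to 3.87 at 2-3h in the wild type and from 0.27 to 4.94 in orb2-delta-zz. CG7794 and betaTub97EF were listed at 2-3h only, each under 1 TPM in every library, and alphaTub85E and betaTub85D at no time point. These are descriptions with no test over time.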
